A study of Mus musculus with 12 samples.

Results

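The comparison described here is that of Endoglin-positive cells with and without the surface receptor Flk1, sorted from mouse embryos at embryonic day 7.5. It holds 6 of the 12 arrays of the series, the 3 titled Eng+Flk1+ and the 3 titled Eng+Flk1-, chosen by their titles. All samples came from CD-1 embryos pooled from 25 litters, about 300 embryos in all, which carried no transgene or mutation named in the labels. The whole embryos were stained with antibodies to endoglin and Flk-1, and 3000 cells were sorted in triplicate for each of the 4 combinations of the 2 markers. The 3 samples of a fraction are therefore sorts from pooled embryos, and nothing says that they came from separate pools, so p-values measure only the spread between these samples, which may be technical. Because so few cells give little RNA, the messenger RNA was copied and amplified by PCR with the SuperAmp procedure. Cy3 label was put on 250 ng of the product, which was hybridised to a 1-colour Agilent mouse array.

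Flk1, encoded by Kdr, is the main signalling receptor for vascular endothelial growth factor (VEGF). It marks mesoderm that leaves the primitive streak and gives rise to endothelium, blood and heart, and embryos that lack it form neither vessels nor yolk sac blood islands. Endoglin, encoded by Eng, is a co-receptor for transforming growth factor beta and bone morphogenetic protein (BMP) ligands on endothelium and on early blood-forming mesoderm. At this stage the conceptus also holds trophoblast, extraembryonic ectoderm, visceral endoderm, epiblast and the first primitive red cells. The comparison asks how the Endoglin-positive compartment differs with Flk1.

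Levels below are log2 of the processed signal minus the 75th percentile of the array, so that 0 is the level below which 75 percent of the spots lie, and a difference of 1 is a factor of 2. Levels of different genes come from different probes and are not compared. Differences are Eng+Flk1+ minus Eng+Flk1-, given with their standard error, and levels are given for replicates 1, 2 and 3 in order, n = 3 in each fraction. Between 80.2% and 83.3% of the spots were well above background on the 6 arrays. Across all genes the log2 levels of 2 arrays correlated at 0.815 to 0.857 within Eng+Flk1+, at 0.857 to 0.877 within Eng+Flk1- and at 0.799 to 0.836 between the fractions. The median SD of a gene was 0.656 in Eng+Flk1+ and 0.551 in Eng+Flk1-. Slide 3 held replicate 3 of Eng+Flk1+ and all Eng+Flk1- arrays, and slide 2 held replicates 1 and 2 of Eng+Flk1+, so slide and Flk1 status partly coincide. In such sorted samples, fewer cells of a type and less RNA per cell cannot be told apart.

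The genes that passed included 4 of 26 endothelial genes and 3 of 16 regulators of blood formation, all higher with Flk1, and 4 of 17 trophoblast and 3 of 20 epithelial genes, all lower. Of 22156 genes tested with limma and Benjamini-Hochberg adjustment, 101 had an adjusted p under 0.05, 58 of them higher (0.262% of the genes tested) and 43 lower (0.194%). At an unadjusted p under 0.05 there were 2215. Over all genes, 7.93% were higher and 7.55% lower with no overlap between the 3 arrays of each fraction, which is the background for the counts of list members below. The lists were chosen with earlier results of these data known, so these counts are a description and not a test. Of the called genes chosen by the naming rule, 18 have further probes that were well above background on all 3 arrays of a fraction. These differed in the same direction in all 18 but often by less. Dimmer probes were not counted, here or where other probes are given below. The count rests on all 6 arrays: it was 1, 0 and 10 without Eng+Flk1+ replicate 1, 2 or 3, and 0, 24 and 1 without Eng+Flk1- replicate 1, 2 or 3, all by limma, with 1891 to 2416 genes at an unadjusted p under 0.05. With slide as a fixed block on the 6 arrays no gene passed (2121 at an unadjusted p under 0.05). That fit sets replicate 3 of Eng+Flk1+ against the Eng+Flk1- arrays within slide 3, the only slide with both fractions. With slide as a random block limma called 103 genes, all 101 among them, at a block correlation of -0.00969. Slide and Flk1 status partly coincide, so neither fit separates them fully. None of the 42 called genes chosen by the naming rule changed direction in any alternative. The lack of reversals was partly fixed in advance. All 101 called genes were without overlap, so leaving out 1 array could not turn a sign, and a changed variance estimate leaves the difference as it is.

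**Figure D1:**
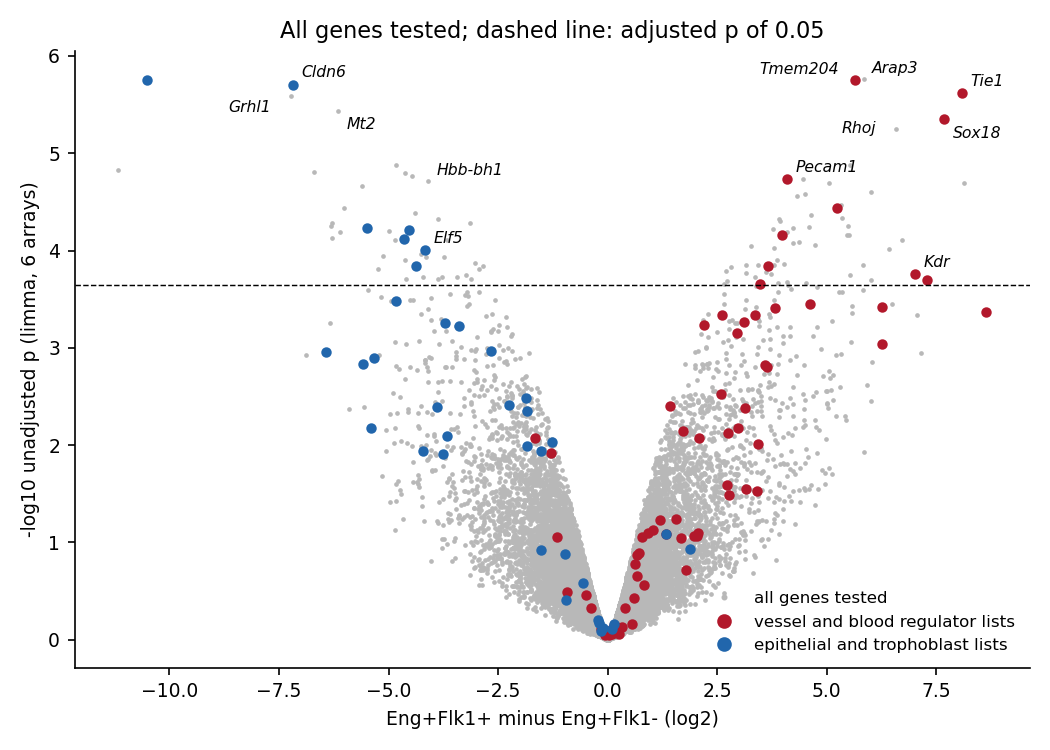
Difference between Eng+Flk1+ and Eng+Flk1- (horizontal axis, log2) against the unadjusted p of limma (vertical axis, -log10) for 22156 genes; red points are members of the VEGF, Tie, endothelial, SoxF, Ets and blood regulator lists, blue points members of the epithelial and trophoblast lists, and the dashed line marks an adjusted p of 0.05. Tie1, Sox18, Arap3 and Tmem204 lie at the upper right, Cldn6 and Grhl1 at the upper left.

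Kdr itself checks the sort. Its probe (mm8 chr5:76214981-76215040, minus strand) measured 1.53, 1.85 and 1.53 in Eng+Flk1+ and -3.27, -6.80 and -6.07 in Eng+Flk1-. All 3 Flk1-positive arrays stood above all Flk1-negative arrays, of which 2 were well above background. The difference was 7.01 ± 0.91 (adjusted p = 0.0464), and the other Kdr probe differed by 7.76. The filter on dim probes asked for 3 of 3 arrays in either fraction, so Kdr entered this comparison only through Eng+Flk1+. The same holds for any gene tested with fewer than 3 Eng+Flk1- arrays well above background, among them Flt4, Tek, Cdh5 and Sox18. Genes with fewer than 3 such Eng+Flk1+ arrays entered only through Eng+Flk1-. The counts of list members below include both kinds. Eng, which every cell of both fractions was sorted for, measured 2.76, 1.04 and 2.49 with Flk1 and 0.75, 0.84 and -0.16 without. These Eng levels did not overlap, but the difference of 1.62 ± 0.58 did not pass (adjusted p = 0.408).

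Of the 10 VEGF receptors, co-receptors and ligands tested, Kdr was the only member that passed, and 3 were higher and 1 lower without overlap, with a median difference of 0.88 beside -0.02 over all genes. Flt4, the receptor for VEGF-C, measured 1.35, 0.99 and 1.78 against -6.58, -2.33 and -5.78. That is a difference of 6.27 ± 1.09 with no overlap, yet it did not pass (adjusted p = 0.10), and 2 of the 3 Flk1-negative arrays were well above background. Flt1, the decoy-like VEGF receptor, differed by 3.40 ± 1.22 (adjusted p = 0.407), with Flk1-negative values from -5.52 to -0.54. The co-receptor Nrp1 differed by 1.04 ± 0.49. The ligand Vegfa ran the other way, at 0.33, 0.35 and 1.41 with Flk1 and 2.23, 2.14 and 2.68 without, a difference of -1.65 ± 0.44 that did not pass (adjusted p = 0.258); its other probe differed by 0.55.

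Tie1, an endothelial receptor of the angiopoietin system, had the largest difference among genes that passed and were well above background on all 6 arrays. Its levels were 2.97, 2.45 and 3.64 with Flk1 and -5.07, -4.38 and -5.76 without (probe mm8 chr4:117969459-117969518, minus strand). Tie1 rose by 8.09 ± 0.52, about 272-fold (adjusted p = 0.00949). Tek, the angiopoietin receptor proper, measured 2.17, 1.77 and 2.24 against -8.40, -7.98 and -3.37. Only replicate 3 of Eng+Flk1- was well above background for Tek, and the difference of 8.64 ± 1.31 did not pass (adjusted p = 0.0702). The other Tek probe differed by 2.54. The ligands Angpt1 and Angpt2 differed by -0.38 ± 0.49 and 0.55 ± 1.29 with overlapping levels; the sign of Angpt1 turned with the mean of its probes and that of Angpt2 when 1 array was left out.

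Of 26 endothelial surface and junction genes tested, 4 rose and none fell, 15 were higher and 1 lower without overlap, and the median difference was 2.40. Cdh5, the cadherin of endothelial junctions, measured 3.10, 2.39 and 2.12 with Flk1 and -6.89, -3.06 and -4.29 without, a difference of 7.28 ± 0.97 (adjusted p = 0.0479), with 2 of the 3 Flk1-negative arrays well above background. The other Cdh5 probe differed by 4.03. Pecam1, a junctional adhesion molecule, was tight in both fractions, at 2.21, 2.02 and 2.41 against -2.18, -1.99 and -1.48. It rose by 4.10 ± 0.37 (adjusted p = 0.0223), and its other probe rose by 5.80. Cd34, a sialomucin of endothelium and blood progenitors, went from -2.89, -3.72 and -4.00 without Flk1 to 0.83, 0.34 and 0.14 with it, a rise of 3.97 ± 0.44 (adjusted p = 0.0323). Tmem204, a transmembrane protein of lymphatic and blood vessels, measured 1.36, 1.47 and 1.74 against -4.19, -3.84 and -4.33, a rise of 5.64 ± 0.35 (adjusted p = 0.00949). Egfl7, a secreted endothelial factor, differed by 4.61 ± 0.68 and missed the threshold (adjusted p = 0.0616).

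**Figure D2:**
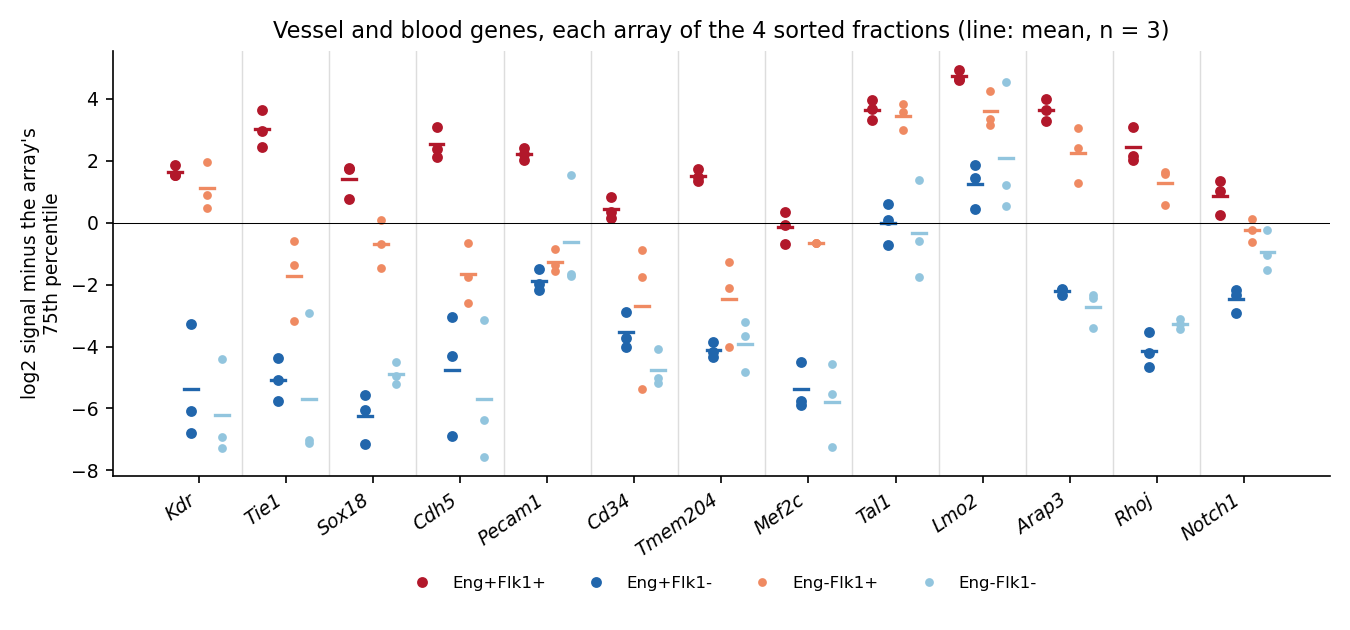
Levels of 13 vessel and blood genes on every array of the 4 fractions (vertical axis, log2 signal minus the array's 75th percentile; points are arrays, lines are means, n = 3). For every gene drawn the dark red Eng+Flk1+ points lie above the dark blue Eng+Flk1- points, for example 2.02 to 2.41 against -2.18 to -1.48 for Pecam1.

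Of the SoxF factors, which drive endothelial and arterial gene expression, Sox18 rose and Sox7 and Sox17 did not pass. Sox18 measured 1.72, 0.78 and 1.77 with Flk1 and -5.57, -6.04 and -7.15 without, where 1 of the 3 arrays was well above background. Its difference was 7.68 ± 0.55 (adjusted p = 0.0123). Sox7 differed by 1.20 ± 0.53 and Sox17, which also marks endoderm, by 1.78 ± 1.22, with overlap in each. The Ets factors, which bind the enhancers of most endothelial genes, had the highest list median, 2.58 over 9 genes, and 6 were higher without overlap, but none passed limma's adjusted threshold, with 5 at an unadjusted p under 0.05. Erg was at 2.40, 1.21 and 2.66 against -0.85, -0.87 and -1.38 (difference 3.12 ± 0.49, adjusted p = 0.0761). Its other probe differed by 9.11. Etv2, the factor that starts the endothelial and blood programme in mesoderm, was at 2.62, 1.20 and 1.95 against -1.49, -0.95 and -0.67, with no overlap and a difference of 2.96 ± 0.49 (adjusted p = 0.0872). Fli1 differed by 3.81 ± 0.49 (adjusted p = 0.0644) on 2 Eng+Flk1+ arrays, since replicate 3 was an outlier spot and was left out. The other Fli1 probe differed by 5.1.

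Promoter windows of the vessel and blood genes that rose are printed to show the letters around the annotated starts of transcription. Of 10 such genes (Cd34, Cdh5, Kdr, Lmo2, Mef2c, Pecam1, Sox18, Tal1, Tie1 and Tmem204), 5 have windows in the RefSeq promoter table (build GRCm38.p6), each from 250 bases before to 50 bases after an annotated start. Capitals mark matches, on either strand, to the motifs searched, which do not overlap one another here. The motif for Ets factors was AGGAAG. The motifs for GATA factors were AGATAA and also TGATAA. An E-box was taken as CAGCTG or else as CATCTG. Those for Sox factors were ACAATG and also ACAAAG. The windows lie at chr4:118489800-118490099 on the minus strand for Tie1, at chr5:75978406-75978705 on the minus strand for Kdr, at chr1:194938571-194938870 on the plus strand for Cd34 and at chr4:115056176-115056475 on the plus strand for the first Tal1 window.
Tie1: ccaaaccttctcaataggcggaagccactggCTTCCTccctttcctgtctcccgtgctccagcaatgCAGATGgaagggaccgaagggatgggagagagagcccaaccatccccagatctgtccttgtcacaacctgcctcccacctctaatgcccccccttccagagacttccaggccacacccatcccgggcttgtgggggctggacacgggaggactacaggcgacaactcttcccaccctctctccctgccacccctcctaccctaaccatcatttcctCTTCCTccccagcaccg
Kdr: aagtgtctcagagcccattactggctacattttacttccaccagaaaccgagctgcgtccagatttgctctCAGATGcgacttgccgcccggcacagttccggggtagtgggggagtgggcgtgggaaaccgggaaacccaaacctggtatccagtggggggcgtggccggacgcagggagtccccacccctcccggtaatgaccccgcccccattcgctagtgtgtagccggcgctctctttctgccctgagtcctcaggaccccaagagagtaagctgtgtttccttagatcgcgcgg
Cd34: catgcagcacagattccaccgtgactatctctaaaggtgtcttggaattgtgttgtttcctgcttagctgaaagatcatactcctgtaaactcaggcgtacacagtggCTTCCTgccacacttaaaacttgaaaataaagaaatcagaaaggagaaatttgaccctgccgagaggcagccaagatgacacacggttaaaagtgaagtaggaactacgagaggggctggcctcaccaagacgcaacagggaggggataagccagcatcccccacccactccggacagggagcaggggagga
Tal1: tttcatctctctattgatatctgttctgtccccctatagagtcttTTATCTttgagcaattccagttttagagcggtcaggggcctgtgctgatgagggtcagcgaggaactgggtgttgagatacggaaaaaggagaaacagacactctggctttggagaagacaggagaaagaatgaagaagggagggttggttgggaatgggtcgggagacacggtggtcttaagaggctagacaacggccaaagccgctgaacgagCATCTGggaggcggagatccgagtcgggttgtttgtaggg
The Tie1 window holds the Ets letters at positions -219 and 34 from the start and an E-box at -183, and that of Cd34 holds the Ets letters at -142. Kdr has an E-box match at -179, and Tal1 a GATA match at -205 and an E-box match at 11. Over the 8 windows of the 5 genes, 4 hold the Ets letters (50%) against 35.4% of the 32851 windows in the table, 4 an E-box (50% against 30.6%), 1 a GATA match (12.5% against 18.6%) and 2 a Sox match (25.0% against 28.6%). These matches are a description of so few windows and not of binding.

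Regulators of blood formation were higher with Flk1 in 3 of 16 cases that passed, with none lower and 7 higher without overlap (median 1.69). Mef2c, a MADS-box factor of heart, vessel and blood mesoderm, measured -0.08, -0.69 and 0.35 with Flk1 and -5.89, -4.51 and -5.75 without, a rise of 5.24 ± 0.52 (adjusted p = 0.0301). Tal1, the bHLH factor required for all blood, was at 3.95, 3.32 and 3.68 against -0.72, 0.60 and 0.08, a rise of 3.66 ± 0.46 (adjusted p = 0.0428). Its partner Lmo2, a LIM-only bridging protein, was at 4.63, 4.93 and 4.62 against 0.43, 1.88 and 1.43, a rise of 3.48 ± 0.47 (adjusted p = 0.0490). All 3 genes were separated by more than the spread of either fraction. Gfi1 was not well above background on any Flk1-negative array and so entered the test only through Eng+Flk1+. In the main processing it was at least 37.0-fold higher with Flk1, but its replicates ranged from -3.35 to 0.35 and it did not pass (adjusted p = 0.0639). Its fitted difference of 6.25 ran from 2.04 to 7.04 over 20 alternatives. Hhex, a homeobox factor of endothelium and endoderm, differed by 3.37 ± 0.52 (adjusted p = 0.0702).

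Regulators of small GTPases, which shape the endothelial cytoskeleton and junctions, rose in 3 of 21 cases, and 9 were higher and none lower without overlap (median 1.64). This list too was chosen with earlier results of these data known, so its counts and median are no independent support. Arap3, a GTPase-activating protein, measured 3.98, 3.27 and 3.64 against -2.33, -2.13 and -2.17, a rise of 5.84 ± 0.36 (adjusted p = 0.00949), while its other probe differed by 2.6. Rhoj, an endothelial small GTPase, measured 2.04, 2.17 and 3.10 against -3.53, -4.20 and -4.66, a rise of 6.57 ± 0.49 (adjusted p = 0.0138), while its other probe differed by 1.17. Arhgef15, a guanine nucleotide exchange factor of endothelium, was at 5.12, 4.24 and 4.13 against 1.46, 0.23 and 0.13, a rise of 3.89 ± 0.52 (adjusted p = 0.0489). None of these 3 genes overlapped between the fractions.

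Among Notch genes, the receptor Notch1 was the only one of 16 that passed, at 1.03, 0.26 and 1.34 against -2.92, -2.19 and -2.33, a rise of 3.36 ± 0.44 (adjusted p = 0.0470), and its other probe rose by 3.42. The ligand Jag1 differed by 1.35 ± 0.57 and the target Hey2 by 2.02 ± 0.92, neither of which passed. Of 10 receptors for TGF-beta and BMP ligands none passed limma's threshold, with 4 at an unadjusted p under 0.05 and a median of 1.06. Acvrl1, the endothelial type I receptor that signals with Endoglin, was at 1.89, 1.20 and 4.19 with Flk1 and 0.84, -1.92 and 0.70 without, a difference of 2.56 ± 1.05 (adjusted p = 0.493). In the matrix list of 27 genes, fibronectin (Fn1) rose by 2.65 ± 0.36 (adjusted p = 0.0490), from 2.46, 3.00 and 2.76 to 5.65, 5.13 and 5.38. Lama4, a laminin chain of vessel walls, differed by 2.38 ± 0.53, and Col1a1, a fibrillar collagen, by -1.54 ± 0.50, neither of which passed.

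Further genes that rose belong to none of these lists. Rassf2, a Ras-association protein, rose by 5.53 ± 0.47 and Cnrip1, a protein that binds the cannabinoid receptor, by 5.49 ± 0.59, with 3 other Cnrip1 probes at 0.76 to 3.78. Ablim1, an actin-binding LIM protein, rose by 5.32 ± 0.53, though its 5 other probes ran from 0.06 to 4.54. Ctla2b, a cysteine protease inhibitor, rose by 4.53 ± 0.61. Some genes were well above background on all arrays with Flk1 and on none without, and so they too entered the test only through Eng+Flk1+. For these, any Flk1-negative level under the lowest signal well above background on its array was raised to that signal. In the main processing this gave Zfp467 (a zinc finger protein) at least 162-fold higher and Fmo1 (a flavin monooxygenase) at least 39.1-fold. Klhl4 was at least 8.53-fold higher, Itpripl2 at least 8.35-fold and Aspn (a matrix proteoglycan) at least 6.07-fold. With normexp background correction Zfp467 still passed limma (3.80, adjusted p = 0.0435). Fmo1 (2.05, adjusted p = 0.0615), Klhl4 (0.78, adjusted p = 0.487), Itpripl2 (0.72, adjusted p = 0.52) and Aspn (0.53, adjusted p = 0.674) did not. These log2 sizes all lie under the bounds of the main processing. Hoxb2 was the only Hox gene of 25 that passed, at -0.09, 0.68 and 1.23 against -4.36, -4.78 and -4.17 (5.04 ± 0.46, adjusted p = 0.0223), but its other probe differed by 0.45. Hoxc8 and Hoxc6 had the opposite sign, -5.57 ± 1.28 and -2.57 ± 0.63, and did not pass.

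Of 20 epithelial genes tested, 3 fell and none rose, 14 were lower without overlap, 1 had a positive difference, and the median was -2.83. Cldn6, a tight junction claudin of embryonic epithelia, measured -3.29, -2.81 and -3.43 with Flk1 and 4.68, 3.83 and 3.45 without, so that it fell by 7.17 ± 0.45 on the log2 scale (adjusted p = 0.00949). Prss8 (prostasin), a membrane serine protease, was at -4.50, -3.11 and -4.48 against 0.60, 0.69 and 0.20, a difference of -4.53 ± 0.49 (adjusted p = 0.0321). St14 (matriptase), a protease of the same surface cascade, was at -0.49, -1.71 and -2.30 against 2.89, 3.22 and 2.5, a difference of -4.37 ± 0.55 (adjusted p = 0.0428). All 3 stood clear of overlap. Cdh1, the epithelial cadherin, was at -2.61, -3.28 and -4.13 against 0.95, -0.52 and 0.68, again with no overlap, but its difference of -3.71 ± 0.59 did not pass (adjusted p = 0.0773). Epcam differed by -4.82 ± 0.70 (adjusted p = 0.0593). In the list of 17 mesenchymal genes, Fn1 alone passed, and Vim, an intermediate filament, was higher without overlap at 2.06 ± 0.37 (adjusted p = 0.109).

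Trophoblast and extraembryonic ectoderm factors had 4 of 17 members that fell and none that rose, with 11 lower without overlap, 3 positive differences and a median of -2.67. Of the 17, 2 were well above background on no Eng+Flk1+ array and so passed the filter on dim probes only through Eng+Flk1-. The same holds for Cdx2 and Sox2, with 2 and 1 of the 3 Eng+Flk1+ arrays well above background. Elf5, an Ets factor that keeps trophoblast stem cells, was at -2.66, -3.40 and -3.61 against 0.34, 0.81 and 1.64, a difference of -4.16 ± 0.49 (adjusted p = 0.0362). Rhox5, an X-linked homeobox gene, was at -0.10, 0.98 and -0.15 against 4.17, 5.02 and 5.48, a difference of -4.65 ± 0.52 (adjusted p = 0.0327). Bmp8b, a BMP ligand of extraembryonic ectoderm, was at -1.74, -1.54 and -1.82 without Flk1 and not well above background with it. In the main processing Bmp8b was at least 33.7-fold lower with Flk1 (limma's adjusted p = 0.0321). Bmp8b entered the test only through Eng+Flk1-, and its fitted difference of -5.5 became -1.86 with normexp background correction (adjusted p = 0.0455). Summed over the list, the linear signal in units of the array's 75th percentile was 33.4 to 40.5 in Eng+Flk1+ and 81.2 to 110 in Eng+Flk1-, and for the epithelial list 21.1 to 27.3 and 107 to 125. The part of such cells in the other differences was not tested.

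**Figure D3:**
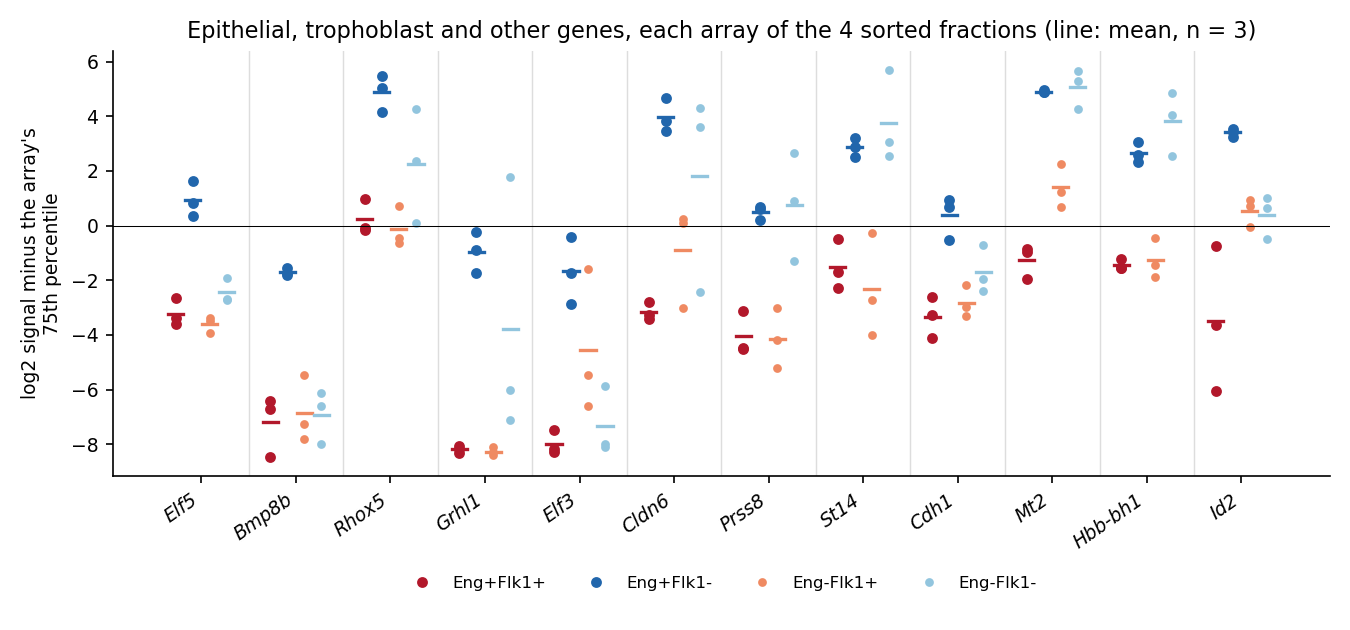
Levels of 12 epithelial, trophoblast and other genes on every array of the 4 fractions (vertical axis, log2 signal minus the array's 75th percentile; points are arrays, lines are means, n = 3). The dark blue Eng+Flk1- points lie above the dark red Eng+Flk1+ points for every gene drawn, for example 3.45 to 4.68 against -3.43 to -2.81 for Cldn6; Cdh1 and Id2 did not pass the adjusted threshold.

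Among 17 BMP ligands and antagonists, Bmp8b alone passed. Bmp4, which is needed for mesoderm and for germ cells, was at 2.66, 2.11 and 1.5 with Flk1 and 3.01, 3.50 and 3.68 without, a difference of -1.31 ± 0.44 (adjusted p = 0.373) with no overlap. Bmp2 had the other sign, 2.82 ± 0.98 (adjusted p = 0.386). Of 12 BMP target genes none passed limma's threshold, with 4 at an unadjusted p under 0.05. Id2, an inhibitor of bHLH factors, was steady without Flk1 at 3.24, 3.54 and 3.44 but spread from -6.05 to -0.74 with it, and its difference of -6.89 ± 1.25 did not pass (adjusted p = 0.113).

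Primitive red cell genes included 1 member of 22 that fell and none that rose, with a median of -0.46. The embryonic globin Hbb-bh1 was at -1.54, -1.22 and -1.56 with Flk1 and 2.57, 3.07 and 2.33 without, a difference of -4.10 ± 0.37 (adjusted p = 0.0223). The other Hbb-bh1 probe differed by -9.96. Hba-x and Klf1 differed by -3.92 ± 1.15 and -4.79 ± 1.62 and did not pass. Globin genes are near-identical copies that probes may not separate. The summed signal of the list was 16.6 to 22.4 in Eng+Flk1+ and 29.0 to 41.2 in Eng+Flk1-, while Eng-Flk1- arrays reached 437 to 763. Of 19 visceral endoderm genes tested, none passed limma's threshold, none had an unadjusted p under 0.05, none was without overlap, and the median was -0.06. Their summed signal was 29.6 to 40.3 with Flk1 and 33.7 to 35.1 without. In the epiblast list of 15, none passed (6 at an unadjusted p under 0.05). Dnmt3l, a cofactor of DNA methylation, differed by -4.52 ± 0.65 (adjusted p = 0.0593), and Dnmt3a, the enzyme itself, by 2.32 ± 0.53 (adjusted p = 0.191), while the 2 other probes of Dnmt3a gave -0.71 and 1.75. In the allantois and extraembryonic mesoderm list of 16, none passed limma's threshold (5 at an unadjusted p under 0.05, all lower), 6 were lower and 1 higher without overlap, and the median was -0.74.

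**Figure D4:**
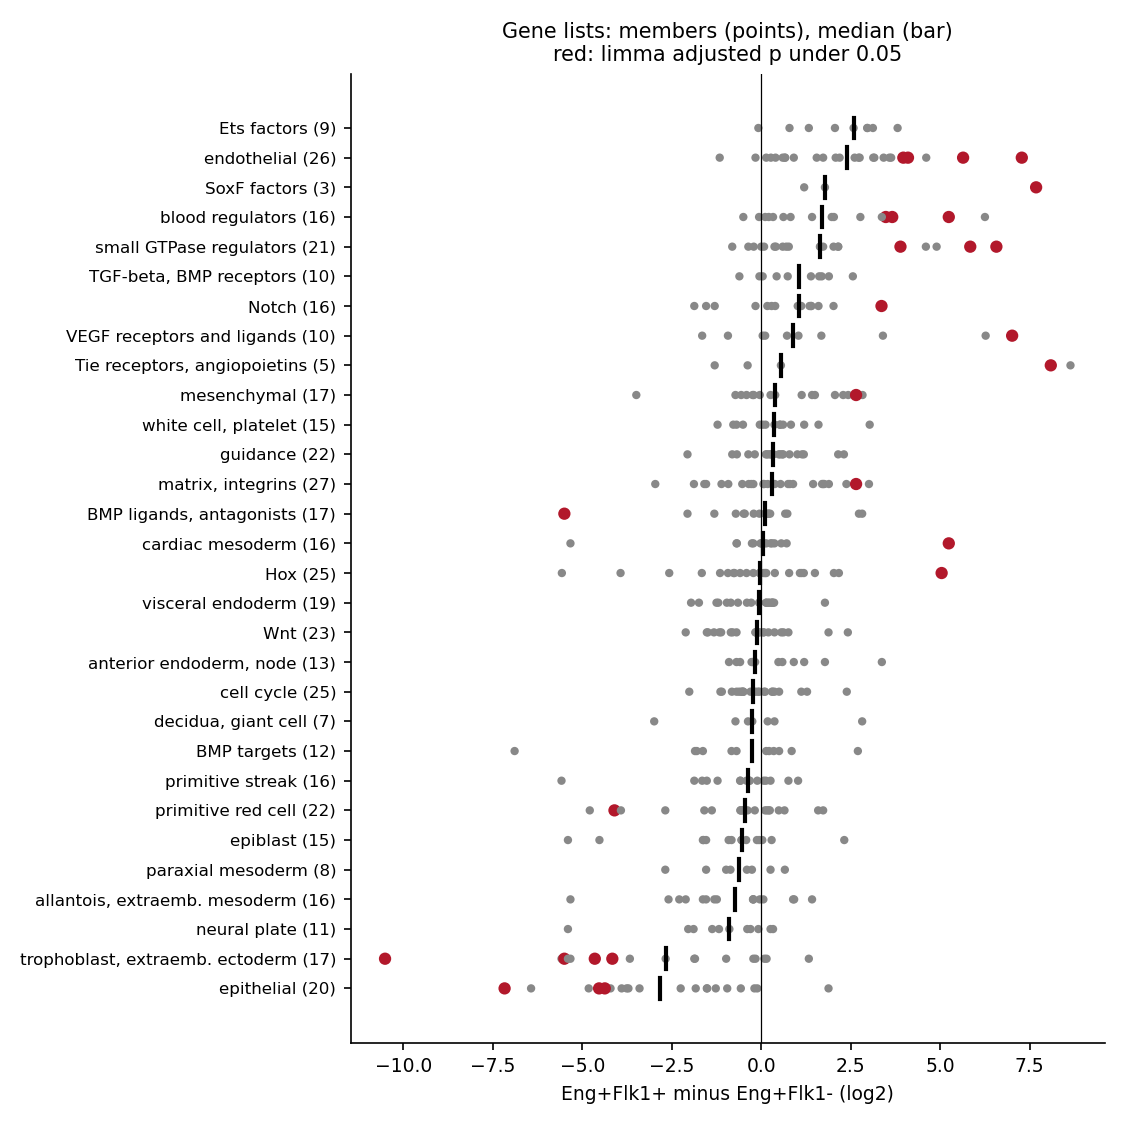
Differences between Eng+Flk1+ and Eng+Flk1- (horizontal axis, log2) for the tested members of 30 gene lists, ordered by median; points are genes, red where limma's adjusted p was under 0.05, and bars are medians, with the number tested in brackets. The medians run from -2.83 for the epithelial list to 2.58 for the Ets factors.

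Outside the lists, Mt2, a metallothionein, was nearly constant without Flk1, at 4.87, 4.89 and 4.95, and measured -0.84, -0.95 and -1.97 with it, a difference of -6.15 ± 0.42 (adjusted p = 0.0116). Sdc4, a heparan sulphate proteoglycan, fell by 4.47 ± 0.39, and its other probe by 4.38. Fmr1nb differed by -5.0 ± 0.55, Ccdc88c by -4.63 ± 0.57, Scamp1 by -4.39 ± 0.45 and Nos1, the neuronal nitric oxide synthase, by -4.21 ± 0.55, all past the threshold and without overlap. The 2 other Ccdc88c probes gave -1.6 and -0.51, and the other Scamp1 probe gave -1.95. Grhl1, an epithelial transcription factor, was not well above background on any Eng+Flk1+ array and was at least 60.8-fold lower there in the main processing. In the same processing Elf3, an epithelial Ets factor, was at least 37.0-fold lower, and the cell cycle inhibitor Cdkn2a at least 16.0-fold lower. These 3 genes entered the test only through Eng+Flk1-. With normexp background correction Grhl1 still passed limma at a smaller size (-2.44, adjusted p = 0.0455). Elf3 (-2.04, adjusted p = 0.159) and Cdkn2a (-1.11, adjusted p = 0.194) no longer did. Among 25 cell cycle genes none passed limma's threshold, with 3 at an unadjusted p under 0.05. Ccnd1 was higher without overlap (2.39 ± 0.50) and Ccne1 lower (-2.01 ± 0.37). None of 23 Wnt genes passed either, with 2 at an unadjusted p under 0.05 and a median of -0.13.

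The same step in cells without Endoglin, Eng-Flk1+ against Eng-Flk1-, uses 6 other arrays. Of the 58 genes that rose among Endoglin-positive cells, 49 differed in the same direction there (84.5%), and of the 43 that fell, 24 did (55.8%). Over all genes tested, 45.3% of those with a positive and 55.2% of those with a negative difference did, so the share of the genes that fell lies near that background. Kdr differed by 7.31 and Tie1 by 3.97 in cells without Endoglin, Tal1 by 3.78, Mef2c by 5.13, and Pecam1 by -0.65. The median of the visceral endoderm list was -2.52 there. Whether the difference with Flk1 itself differed was tested as an interaction over all 12 arrays, in which the Eng-Flk1- arrays stand apart. Their median SD was 1.01, and 66.5% to 76.3% of their spots were well above background, against 80.2% to 83.3% on the 9 others. It passed in 63 of 22841 genes (0.276%), 3 with a more positive difference among Endoglin-positive cells and 60 with a more negative one, and 3 of the 63 are among the 101. In 38 of the 63 fewer than 3 Eng-Flk1- arrays were well above background, and in 25 none was; the part of this in the interactions was not tested. Pecam1 and Tmem204 were not among them (interaction 4.75 ± 1.08 and 4.2 ± 0.95, adjusted p = 0.125 and 0.124), so that their differences are not shown to depend on Endoglin. Bmp4 was the only BMP ligand that passed, with an interaction of -6.13 ± 0.88 (adjusted p = 0.0239). The number of interactions that passed ranged from 25 to 312 when 1 array was left out, and was 0 with slide as a fixed block (1424 at an unadjusted p under 0.05).

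**Figure D5:**
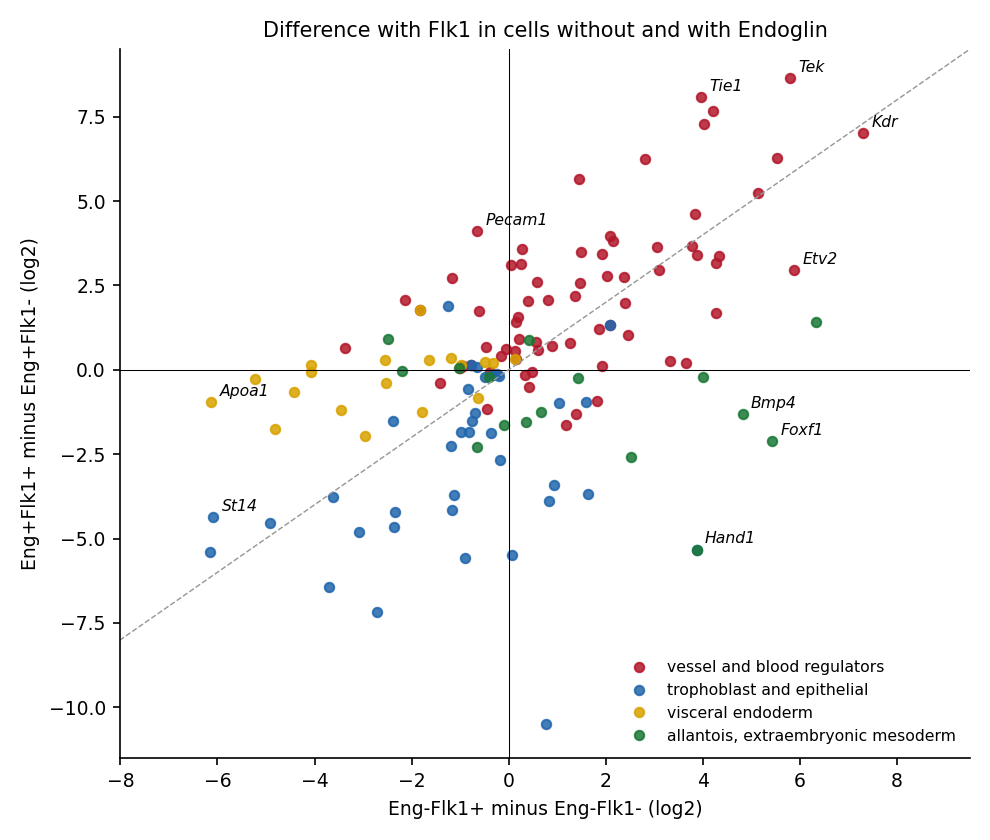
Difference with Flk1 in cells with Endoglin (vertical axis, log2) against that in cells without (horizontal axis, log2), for members of 10 lists coloured by group; the dashed line marks equal differences. Kdr lies near the line at 7.31 and 7.01, while Bmp4 lies at 4.82 on the horizontal and -1.31 on the vertical axis.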

How the data were processed

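RNA from 12 sorted samples was measured on 1-colour Agilent arrays, 6 of them compared here. Per the file headers, Feature Extraction version 10.5.1.1 gave a background-subtracted processed intensity per spot, with probe positions in build mm8. The authors' deposited table holds intensity over each array's median, and the deposited flags (other) mark spots above background or as outliers. Control and outlier spots were left out, log2 taken, each array's 75th percentile subtracted and spots of a probe averaged. Probes were named by accession through a RefSeq table (24375 of 41174 probes), with 1 probe per gene, that of the highest mean over 12 arrays. A gene was tested where every array of at least 1 fraction had it well above background (22156 of 27745) with limma 3.58.1 in R 4.3.3, with Benjamini-Hochberg adjustment. A gene was called at an adjusted p under 0.05. Genes were named by size among calls without overlap and well above background on all 6 arrays (10 each way), by lower bounds (5 each way), by the 5 lowest p of each of 30 lists together with every called member, and as markers. Names that are only identifiers were passed over, and not every gene the rule chose is reported here. The members and lists were chosen with earlier results of these data known. Array number, not read depth, limits precision. The fit was tested on simulated data. Replicate numbers did not pair the samples. Alternatives covered samples, scaling, background, filter, probes, variance, slide, replicate block and left-out arrays.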

Additional observations from a re-analysis of the deposited data

Results flagged for a closer look

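In 6 genes, the difference with Flk1 was of different size or sign in cells with and without Endoglin by the interaction test of limma over 12 arrays. They were taken from the 63 interactions that passed because they are members of the gene lists or were also called among Endoglin-positive cells. Tpst1, a tyrosylprotein sulfotransferase, had an interaction of -10.0 ± 1.02 (adjusted p = 0.00478), with differences of -6.01 with Endoglin and 3.99 without. None of the Eng-Flk1- arrays and 1 of 3 Eng+Flk1+ arrays had it well above background, so both sizes rest on values near background, and the interaction ranged from -11.04 to -2.99 over its alternatives. Fbxo17, an F-box protein, had -8.01 ± 0.87 (adjusted p = 0.00628), with -3.86 and 4.15. It was well above background on 1 Eng+Flk1+ and 1 Eng-Flk1- array, and the interaction ranged from -8.61 to -2.96. Foxf1, a forkhead factor of extraembryonic mesoderm, had -7.54 ± 1.06 (adjusted p = 0.0223), with -2.11 and 5.43. The probe A_51_P174350, which has no gene name in the files, had -8.60 ± 1.25 (adjusted p = 0.0239), with -4.25 and 4.35. It was well above background on no Eng+Flk1+ array and on 1 Eng-Flk1- array, and the interaction ranged from -10.32 to -2.91. Bmp4 had -6.13 ± 0.88 (adjusted p = 0.0239): its levels were 2.68, 1.77 and 1.62 in Eng-Flk1+ and -3.72, -1.44 and -3.24 in Eng-Flk1-. The adult-type globin Hbb-bt had 3.58 ± 0.57 (adjusted p = 0.0353), with -0.48 and -4.06, and its Eng-Flk1- arrays stood at 6.05, 5.46 and 5.50 against 1.12 to 2.24 on the 9 others. None of these interactions passed with slide as a fixed block, under which no gene did (1424 at an unadjusted p under 0.05).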

How the results depend on the processing

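The 42 genes chosen by the naming rule that passed gave 869 pairs of a gene and an alternative setting. The direction changed in none, which leaving out 1 array could not bring about in genes without overlap. In 448 of the pairs the adjusted p, before rounding, was no longer under 0.05. Beside 101 calls (58 higher, 43 lower), limma called 74 (47 and 27) over 12 arrays, 42 of them shared with the 101, 75 (37 and 38, with 73 shared) with median scaling or the authors' table, 22 (11 and 11) with no filter on dim probes, 48 (30 and 18) where all 6 arrays had to be well above background, and 145 (80 and 65, with 95 shared) with an intensity trend. With slide as a fixed block it called 0 (0 and 0) on 6 arrays and 11 (7 and 4) on 12. With slide as a random block it called 103 (60 and 43), all 101 among them. Over the 9 arrays without Eng-Flk1- limma called 145 (85 and 60, with 75 shared). Quantile normalization gave 96 (53 and 43, with 88 shared) and normexp 121 (70 and 51, with 73 shared). The mean of all probes gave 118 (65 and 53, with 79 shared) and array weights 120 (67 and 53, with 100 shared). Leaving out 1 array gave 0 to 24 calls, 0 to 17 higher and 0 to 7 lower. With the replicate number as a block it called 0 (0 and 0, with 2078 at an unadjusted p under 0.05); deviations of same-numbered arrays correlated at -0.0231, -0.0586 and 0.00161, so the block has no basis in pairing. The interaction was called in 26 genes with the replicate block, 40 with quantile normalization, 38 with normexp, 0 with slide as a fixed block, and 25 to 312 with 1 array left out. Of named genes that did not pass, Angpt1 (0.55) and Gbx2 (0.04) reversed with the mean of all probes, Foxa2 (-0.51) with slide as a fixed block on 6 or 12 arrays, and Angpt2 without Eng+Flk1+ replicate 2 (-0.11) or Eng+Flk1- replicate 2 (-0.22), within a range of -0.22 to 1.77 with 1 array left out. The cause was not tested. The medians of the endothelial (1.56 to 2.79), Ets (2.12 to 3.12), blood regulator (1.23 to 1.91), trophoblast (-3.23 to -1.85) and epithelial (-2.93 to -2.49) lists kept their sign in all 21 alternatives. Part of this was fixed in advance, since alternatives that change only the variance estimate leave the differences as they are. The authors' table also repeats median scaling, and the lists were chosen with earlier results of these data known.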

Other observations

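Chosen after its values were seen, Trap1a had the largest difference of all called genes, -11.17 ± 0.97 (adjusted p = 0.0223). It measured -8.21, -6.77 and -4.34 in Eng+Flk1+, where 1 array was well above background, and 4.88, 4.22 and 5.09 in Eng+Flk1-. Trap1a therefore entered the test only through Eng+Flk1-. In cells without Endoglin it differed in the same direction, by -8.94. Also chosen after their values were seen, Fat4, an atypical cadherin, and Adamts1, a matrix protease, rose by 6.0 ± 0.80 and 6.71 ± 0.76 (adjusted p = 0.0479 and 0.0327), with 1 and 2 of the 3 Flk1-negative arrays well above background. Fat4 and Adamts1 therefore entered the test only through Eng+Flk1+. The other Fat4 probe differed by 0.93. Npr3, the natriuretic peptide clearance receptor, measured -0.06, 0.72 and 1.22 against -3.26, -3.91 and -3.60, a rise of 4.22 ± 0.46 (adjusted p = 0.0321). Its 2 other probes differed by 1.19 and 5.76.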
